A study of Mus with 8 samples.

Results

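The genes described here are Cyp4a10, Cyp4a12a, Cyp4a14, Cyp4a31 and Cyp4a32, the Cyp4a fatty acid hydroxylases named for this account, 5 genes of 30624 compared. They were chosen from their difference between the genotypes in these same arrays, so every difference between genotypes given for them is a description without a test. The value of a gene is that of the probe set annotated with that gene alone. This rule found 4 of the 5. Cyp4a10 appears only on a probe set that is also annotated with Cyp4a31, and the value of that probe set is given below as its own item and assigned to neither gene.

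Cyp4a enzymes are cytochrome P450 monooxygenases of the endoplasmic reticulum that add a hydroxyl group to the omega end of fatty acids. Alcohol and aldehyde dehydrogenases then turn the product into a dicarboxylic acid, which is shortened in peroxisomes. The genes lie in a cluster and are known as targets of the fatty acid receptor PPAR alpha, above all in liver and kidney, where they are most active. Brown fat burns fatty acids mainly through mitochondrial beta oxidation.

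The study took interscapular brown fat from 8 C57BL/6 mice, 4 with the genotype label HILPDA KO and 4 WT (wild type), and put the RNA of each mouse on its own array. Hilpda encodes a lipid droplet protein that inhibits the triglyceride lipase of the droplet. The allele, the cells in which the gene was deleted, and the age and diet of the mice are not stated in the labels. Values are on a log2 scale, on which a difference of 1 is a doubling. Replicates 1 and 2 of both genotypes (set 1) and replicates 3 and 4 of both genotypes (set 2) have different distributions, with medians over all genes of 3.92 to 3.98 and 4.92 to 4.96, so levels are compared within a set. Each set holds 2 KO and 2 WT arrays, and the number of arrays limits the precision. All 16 brown fat markers, Ucp1 among them, lay above background on all 8 arrays, background being the 95th percentile of 1072 olfactory receptor genes on the same array (3.81 to 3.97 in set 1 and 4.75 to 4.87 in set 2). The labels call all mice female, whereas the Y-linked genes Uty (9.31 to 10.93) and Eif2s3y (8.53 to 11.01) were high and Xist was low (3.49 to 4.10) on every array. Hilpda itself read 4.45 and 4.37 in KO against 4.37 and 4.28 in WT in set 1, and 5.60 and 5.51 against 6.00 and 5.92 in set 2, so its level goes with the labels in set 2 only, and in set 1 a direction rests on the labels. Whether its probes lie in the deleted part is not stated.

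RNA of other tissues has to be read beside these genes. Albumin (Alb), the main secreted protein of hepatocytes, read 19.23 and 15.81 in KO replicates 1 and 2 and 14.51 and 10.03 in WT replicates 1 and 2. In set 2 it read 5.23 and 4.99 in KO and 5.11 and 4.79 in WT, close to background. Of 42 measured liver markers, 42, 40, 40 and 35 lay above background on KO 1, KO 2, WT 1 and WT 2, and between 6 and 8 did so on the arrays of set 2. The median level of the list was 7.34 (KO 1), 5.57 (KO 2), 5.23 (WT 1) and 4.56 (WT 2), against 4.04 to 4.12 for the arrays of set 2. Markers of kidney, the other main site of Cyp4a expression, stayed low: between 1 and 3 of 19 lay above background on any array, and their median was 3.37 to 3.47 in set 1 and 3.91 to 4.05 in set 2. The median of 25 skeletal muscle markers was 5.74 and 8.61 in KO and 7.52 and 7.002 in WT of set 1, and 5.33 and 10.32 in KO and 11.05 and 8.96 in WT of set 2.

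The genes Cyp4a14, Cyp4a31 and Cyp4a32, were above background on all 8 arrays and higher in both KO arrays than in both WT arrays of each set. They fell into different patterns. Cyp4a14 was high in the KO arrays of set 1 and little raised in set 2. Cyp4a31, Cyp4a32 and the probe set of Cyp4a10 and Cyp4a31 were highest in KO replicate 1 of set 1 and KO replicate 4 of set 2, the second of these an array with albumin at 4.99. Cyp4a12a was at background in all of set 2. Over all 30624 genes, both KO values lay above both WT values in 18.9% of genes in set 1, 23.9% in set 2 and 2.85% in both, and the difference was at least 1 in 0.516% of genes in set 1, 1.25% in set 2 and 0.101% in both. These shares are given as background only, since the genes were chosen on that contrast.

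**Figure D1:**
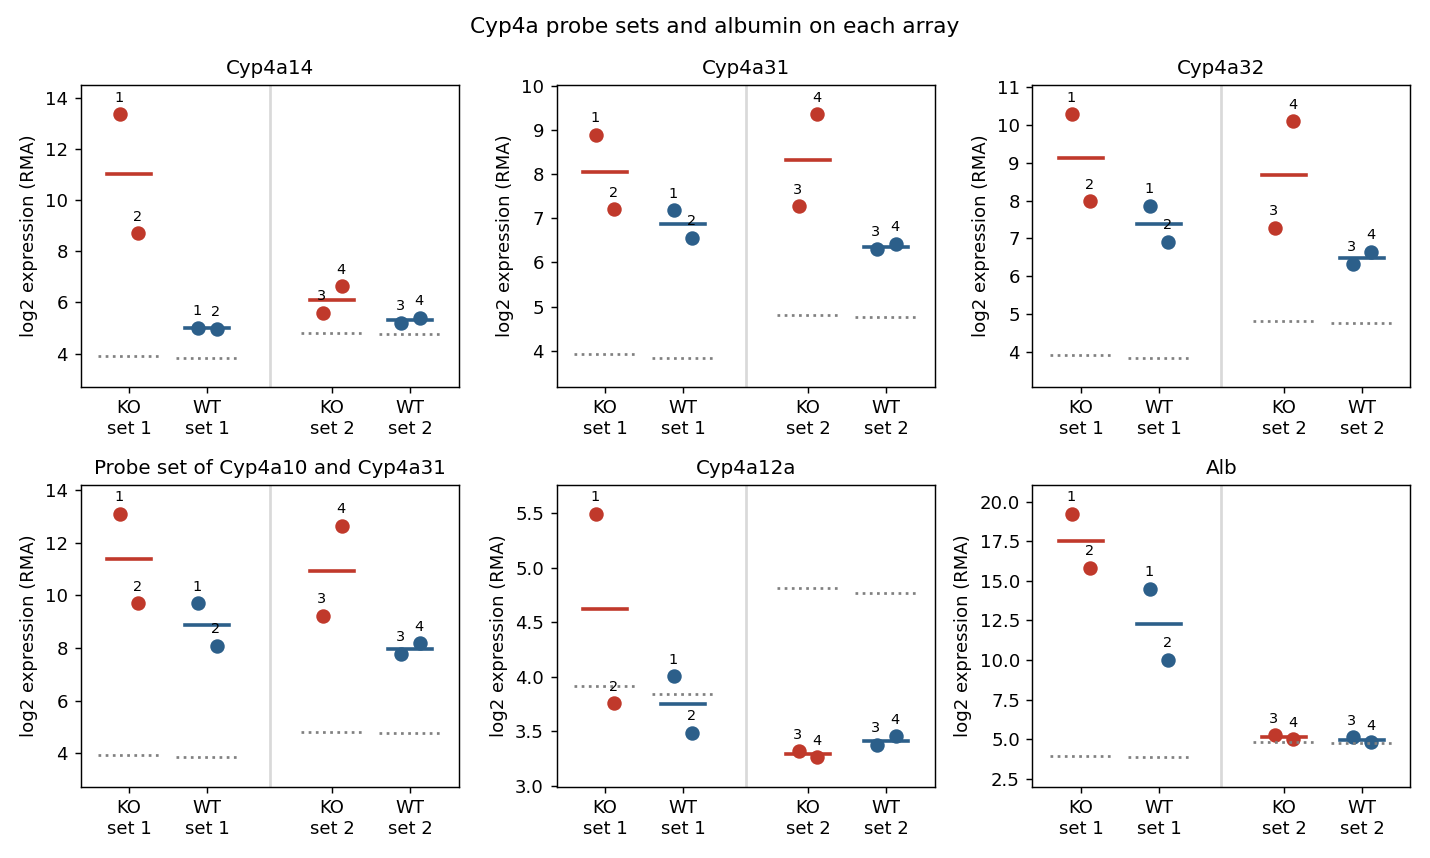
Each panel plots the log2 expression of 1 probe set on the 8 arrays, by genotype and set, with the replicate number over each point, the mean of 2 arrays as a solid line and the mean background level (95th percentile of olfactory receptor genes) as a dotted line. Cyp4a31, Cyp4a32 and the probe set of Cyp4a10 and Cyp4a31 are high in KO 4, where albumin reads 4.99, and Cyp4a14 is high in KO 1 and KO 2.

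Cyp4a14, which in mouse liver responds strongly to PPAR alpha agonists and to fasting, read 13.37 and 8.71 in KO replicates 1 and 2 against 5.01 and 4.97 in WT replicates 1 and 2. In set 2 it read 5.59 and 6.63 in KO replicates 3 and 4 against 5.21 and 5.40 in WT replicates 3 and 4. The KO arrays of set 1 thus stood apart from all the others, and within KO they differed from each other by 4.66. The mean difference, KO minus WT, was 6.05 (SE 1.29) in set 1, or 66.4-fold on the linear scale, and 0.81 (SE 1.29) in set 2, or 1.75-fold. Standard errors here are those of limma and take their spread from all 4 pairs of replicate arrays. Without KO replicate 1 the difference in set 1 was 3.72, and without KO replicate 4 that in set 2 was 0.29. By the size of its mean difference Cyp4a14 ranked 1 of 30624 genes in set 1 and 696 in set 2.

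Cyp4a31, a close relative of Cyp4a10 in the same part of the cluster, read 8.89 and 7.20 in KO against 7.17 and 6.55 in WT of set 1. KO replicate 2 lay above WT replicate 1 by only 0.02. In set 2 the values were 7.27 and 9.36 in KO against 6.30 and 6.41 in WT, with a gap of 0.86 between the lower KO and the higher WT array. The difference was 1.18 (SE 0.75) in set 1, or 2.27-fold, and 1.95 (SE 0.75) in set 2, or 3.88-fold. It was 0.34 in set 1 without KO replicate 1, and 0.91 in set 2 without KO replicate 4.

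Cyp4a32, the neighbouring hydroxylase gene, read 10.29 and 7.98 in KO against 7.86 and 6.91 in WT of set 1, and 7.28 and 10.10 against 6.33 and 6.65 in set 2. The order of the arrays was the same as for Cyp4a31 in both sets. The difference was 1.75 (SE 1.02) in set 1, or 3.36-fold, and 2.20 (SE 1.02) in set 2, or 4.6-fold. Without KO replicate 1 the value in set 1 was 0.59, and without KO replicate 4 the value in set 2 was 0.79. Among all genes Cyp4a32 ranked 56 in set 1 and 28 in set 2 by this difference, and Cyp4a31 ranked 117 and 41.

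The probe set annotated with both Cyp4a10 and Cyp4a31 read 13.10 and 9.70 in KO against 9.70 and 8.08 in WT of set 1. In set 2 it read 9.23 and 12.64 in KO against 7.77 and 8.18 in WT. Both KO arrays lay above both WT arrays in each set, in set 1 by 0.01 and in set 2 by 1.05. The difference was 2.51 in set 1, or 5.7-fold, and 2.96 in set 2, or 7.78-fold, and both were larger than those of Cyp4a31 on its own probe set. Without KO replicate 1 it was 0.81 in set 1, and without KO replicate 4 it was 1.26 in set 2. Cyp4a10, Cyp4a31 and Cyp4a32 are similar genes, and signal of one may bind probes of another, so the 3 probe sets are not independent measurements.

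Cyp4a12a, the male-predominant arachidonic acid hydroxylase of mouse kidney and liver, was above background on 2 arrays only. It read 5.50 in KO 1 and 4.01 in WT 1, and 3.76 and 3.49 in KO 2 and WT 2. In set 2 it read 3.32 and 3.26 in KO and 3.37 and 3.46 in WT, below 4.75 on each array. The genotypes overlapped in set 1, with a difference of 0.88 (SE 0.50) that was 0.01 without KO replicate 1. Its partner Cyp4a12b, which is not among the 5, read 5.66, 3.92, 4.10 and 3.44 on KO 1, KO 2, WT 1 and WT 2 and 3.41 to 3.64 in set 2. The 2 genes took the same order over the arrays of set 1.

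Set beside albumin, the arrays of set 1 ran in the order KO 1, KO 2, WT 1, WT 2. Cyp4a14, Cyp4a31, Cyp4a32 and the probe set of Cyp4a10 and Cyp4a31 took that order, as did 5.54% of all genes and 27 of the 42 liver markers, while Cyp4a12a did not. That order needs both KO values above both WT values, as in 18.9% of all genes in set 1. The Cyp4a genes were chosen on that contrast, so their order is in part given by the choice and is only described. The part of liver RNA in these values of set 1 was not tested. In set 2, where albumin spanned 4.79 to 5.23, the differences were 1.95 for Cyp4a31 and 2.20 for Cyp4a32. Without KO replicate 4 they were 0.91 and 0.79. The part of RNA of other tissues in these values of set 2 was not tested either. In bulk tissue, more cells of a type and more RNA per cell cannot be told apart.

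**Figure D2:**
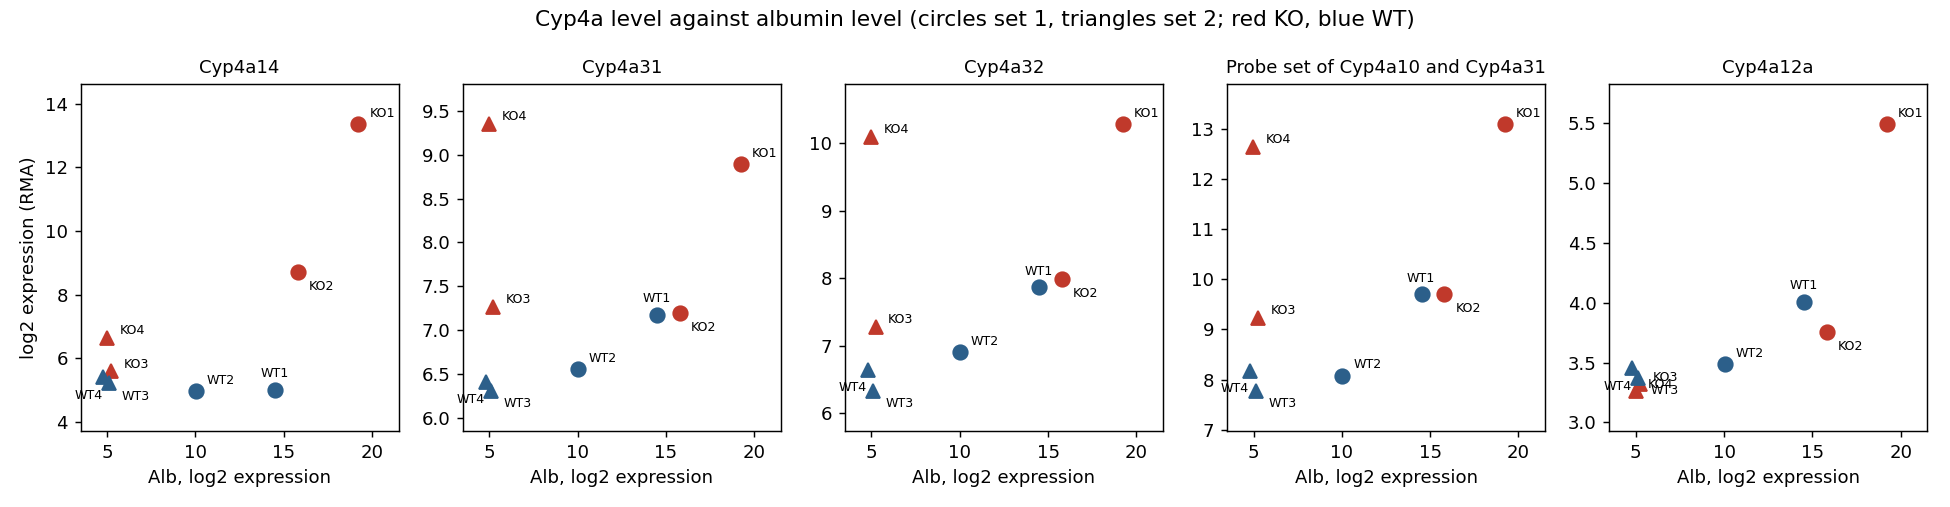
Log2 expression of 5 Cyp4a probe sets (vertical axes) against that of albumin (horizontal axes) on the 8 arrays, circles for set 1, triangles for set 2, red for KO and blue for WT. In the panels of Cyp4a31, Cyp4a32 and the probe set of Cyp4a10 and Cyp4a31, KO 2 and WT 1 lie together and KO 4 lies high at an albumin value of 4.99, and in the panel of Cyp4a14 WT 1 reads 5.01 at an albumin value of 14.51.

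Differences between single arrays are set beside those of albumin here, with 1 array on each side. Whether a gene follows liver RNA was not tested. WT 1 exceeded WT 2 by 4.48 in albumin and by a median of 0.68 over the liver markers. Cyp4a14 differed by 0.04 between these arrays, less than 41 of the 42 liver markers. It read 5.01 and 4.97 there, and signal near background limits what this small difference can show. Cyp4a31 differed by 0.62, Cyp4a32 by 0.95 and the probe set of Cyp4a10 and Cyp4a31 by 1.62. KO 1 exceeded KO 2 by 3.43 in albumin and by a median of 1.89 over the liver markers. The corresponding values were 4.66 for Cyp4a14, 1.69 for Cyp4a31, 2.31 for Cyp4a32 and 1.74 for Cyp4a12a.

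KO 2 and WT 1 were the arrays of opposite genotype with the closest liver marker levels in set 1. Over the 42 markers the median of KO 2 minus WT 1 was 0.11, with a range from -0.94 to 2.65, and albumin differed by 1.30. Cyp4a31 differed by 0.02, Cyp4a32 by 0.12 and the probe set of Cyp4a10 and Cyp4a31 by 0.01. Cyp4a14 differed by 3.70, more than any of the 42 markers. The marker with the value of 2.65 was Tat, a tyrosine-degrading liver enzyme known to respond to glucocorticoids and fasting, which read 7.23 in KO 2 and 4.58 in WT 1.

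Within set 2 the single arrays parted otherwise. KO 4 exceeded KO 3 by 2.09 in Cyp4a31, by 2.82 in Cyp4a32 and by 3.41 in the probe set of Cyp4a10 and Cyp4a31, while albumin differed by -0.24 and the liver markers by a median of 0.07. Cyp4a14 differed by 1.04 between them. None of the 42 listed liver markers differed by more than any of these values, the highest being 0.91. Outside that list, Itih4 and Mup20, described below, read 5.25 and 5.69 in KO 3 and 7.57 and 6.92 in KO 4. Both are named here for their high values in KO 4. KO 3, the lower KO array, exceeded WT 3 by 0.97 in Cyp4a31 and 0.95 in Cyp4a32, and WT 4 by 0.86 and 0.63. The WT arrays differed from each other by 0.11, 0.32, 0.41 and 0.19 in Cyp4a31, Cyp4a32, the probe set of Cyp4a10 and Cyp4a31, and Cyp4a14. The median of the skeletal muscle markers was 5.33 in KO 3, 10.32 in KO 4, 11.05 in WT 3 and 8.96 in WT 4. It was thus higher in KO 4 than in KO 3, as for the Cyp4a genes, but highest in WT 3. The part of muscle RNA in these values was not tested.

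**Figure D3:**
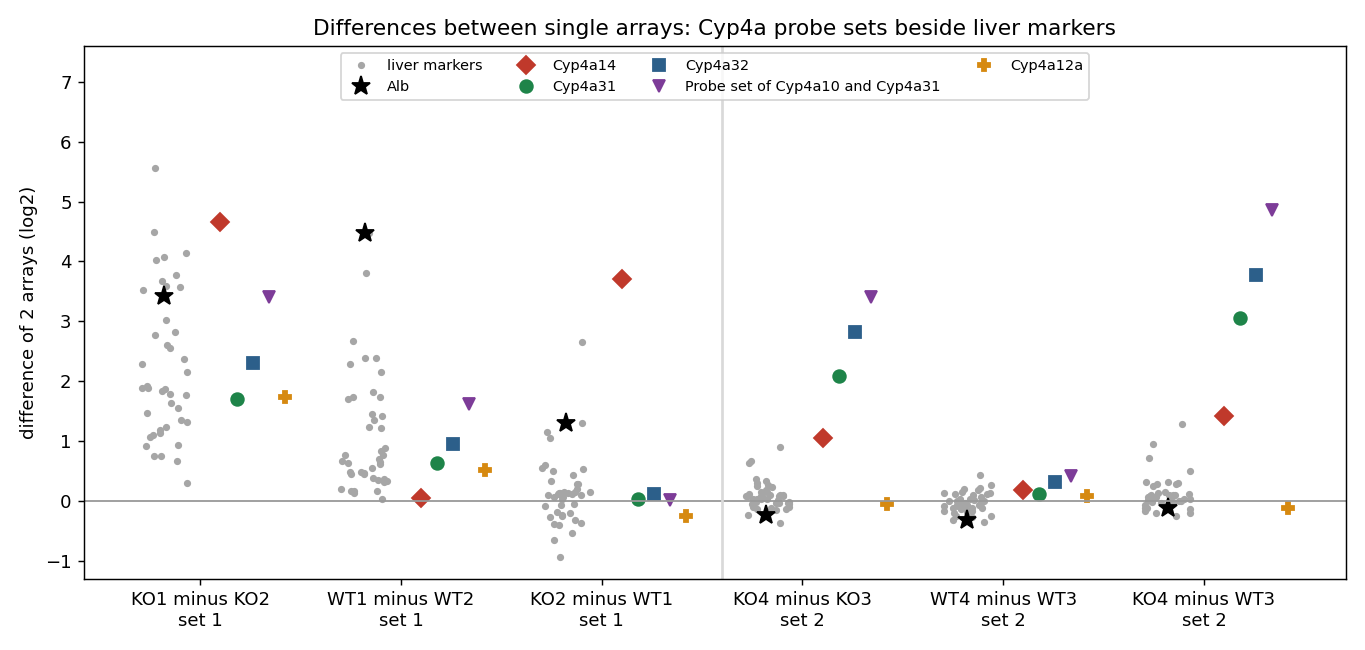
Differences between 2 arrays on the log2 scale for 42 liver markers (grey points, albumin as a star) and for 5 Cyp4a probe sets (coloured symbols), for 3 pairs of arrays in set 1 and 3 in set 2. Cyp4a14 lies above all liver markers for KO 2 minus WT 1 and near 0 for WT 1 minus WT 2, and Cyp4a31, Cyp4a32 and the probe set of Cyp4a10 and Cyp4a31 lie above all liver markers for KO 4 minus KO 3.

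The genes sit side by side on chromosome 4 in the RefSeq gene table, in the order Cyp4a29, Cyp4a12a, Cyp4a12b, Cyp4a30b, Cyp4a14, Cyp4a10, Cyp4a31, Cyp4a32 and Cyp4b1. Cyp4b1, which hydroxylates shorter fatty acids and foreign compounds, was well expressed and differed by 0.10 in set 1 and -0.01 in set 2. Its 4 values in KO were 13.63, 14.63, 14.66 and 15.26, and those in WT were 14.02, 14.04, 15.01 and 14.94. Cyp4b1-ps2, a transcribed pseudogene between Cyp4a31 and Cyp4a32, differed by 0.24 and -0.04, with overlapping genotypes in both sets. Cyp4a29 and Cyp4a30b stayed at or below background on all arrays. Beyond the cluster, Cyp4x1 (-0.04 and 0.13) on one side and Efcab14 (0.31 and -0.40) on the other had smaller differences than Cyp4a31 and Cyp4a32 in each set.

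**Figure D4:**
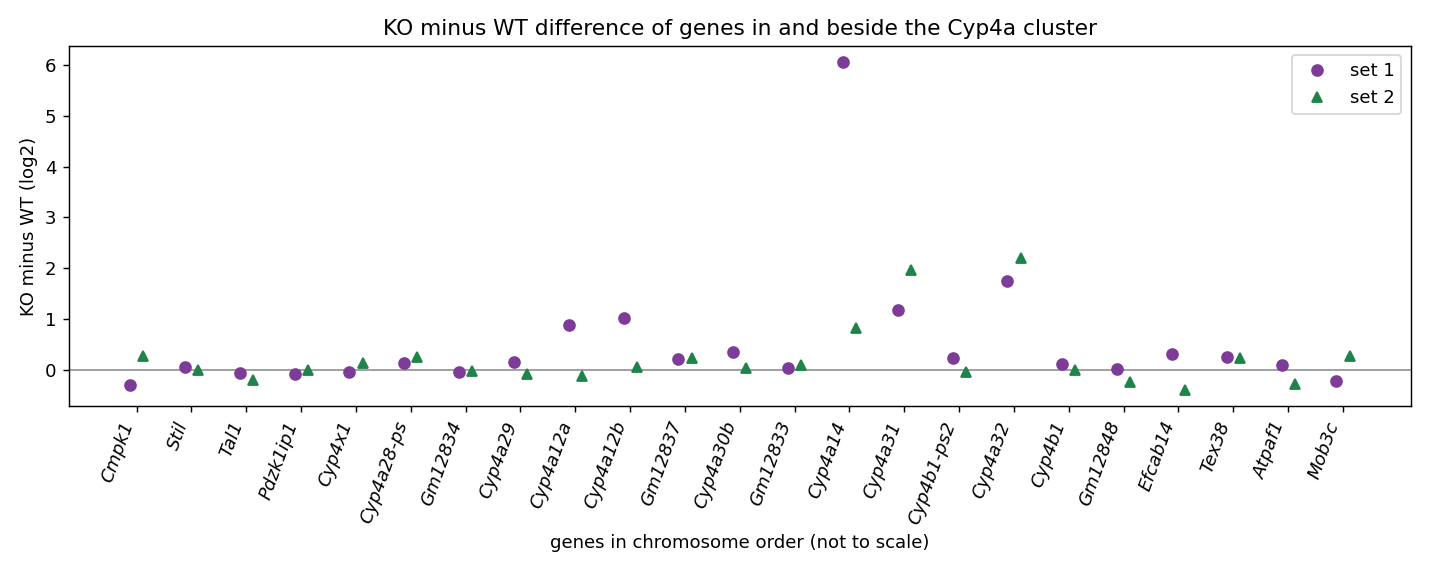
KO minus WT on the log2 scale for measured genes in and beside the Cyp4a cluster, in chromosome order and not to scale, with circles for set 1 and triangles for set 2. Cyp4a14 reaches 6.05 in set 1, Cyp4a31 and Cyp4a32 lie between 1.18 and 2.20 in both sets, and the genes between and beside them lie from -0.40 to 0.35, apart from Cyp4a12a and Cyp4a12b in set 1.

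Tests were possible for genes outside the 5. With the set as a block, limma with Benjamini-Hochberg adjustment called 0 of 30624 genes (0.0% of genes called), and 1473 had an unadjusted p under 0.05. Within set 1 it called 0 (2365 unadjusted) and within set 2 it called 1 (0.00327% of genes called, 4604 unadjusted), which was on none of the lists below. Nothing in the following lists passed, in either direction, and they are described by their values.

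The other Cyp4 genes numbered 16 measured of 17 listed, and 14 had a difference above 0, as did 16112 of all 30624 genes, with a median of 0.05 against 0.01 over all genes. The 4 with the smallest unadjusted p were Cyp4a28-ps (0.19, SE 0.08), a pseudogene of the cluster at background, Cyp4a30b (0.19, SE 0.11), Cyp4f15 (0.21, SE 0.15), a leukotriene and fatty acid hydroxylase, and Cyp4a12b (0.54, SE 0.39). KO values lay above WT values in both sets for 1 of the 16, Cyp4a28-ps, where 2.85% of all genes did so. Cyp4f17 differed by -0.63 in set 1 and 0.72 in set 2, and was picked out after its values were seen.

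Cytochrome P450 enzymes take electrons from partner proteins, of which 4 of 5 listed were measured. Cyb5a, a cytochrome b5 that supports P450 reactions, read 10.15 and 10.45 in KO against 10.70 and 11.47 in WT of set 1, and 12.66 and 12.79 against 11.20 and 11.81 in set 2, so the genotypes were parted in opposite directions in the sets (differences of -0.78 and 1.23). Cyb5b, the form of the mitochondrial outer membrane, differed by 0.11 and -1.35. The cytochrome b5 reductases Cyb5r1 and Cyb5r3 differed by -0.05 (SE 0.08) and -0.32 (SE 0.19) over both sets.

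Of the 11 alcohol and aldehyde dehydrogenases, the enzymes that follow omega hydroxylation, 6 had a difference above 0 and 5 below, with a median of 0.03. Aldh1a1, which oxidizes retinal and other aldehydes, had the smallest unadjusted p, with a difference of 0.33 (SE 0.18; 0.57 in set 1 and 0.08 in set 2). Adh5, the glutathione-dependent form that also takes omega hydroxy fatty acids, differed by 0.21 (SE 0.16), Adh7 by 0.08 (SE 0.08) and Aldh2, the mitochondrial aldehyde dehydrogenase, by -0.24 (SE 0.19). Aldh3a2, the fatty aldehyde dehydrogenase, read 7.89 to 8.26 in set 1 and 9.41 to 9.67 in set 2 and differed by -0.09 (SE 0.10).

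The 17 measured genes of peroxisomal dicarboxylate oxidation had 8 differences above 0 and 9 below. Their medians were 0.08 in set 1 and -0.25 in set 2, against 0.00 and 0.02 over all genes. Acot8 and Acot4, thioesterases that release the shortened acids, differed by -0.29 (SE 0.14) and -0.42 (SE 0.23). Crat, carnitine acetyltransferase, differed by -0.25 (SE 0.14) and Slc27a2, a very long chain acyl-CoA synthetase, by 0.22 (SE 0.13). Ehhadh, the bifunctional enzyme that takes the dicarboxylic acids, read 18.14 and 18.18 in KO against 18.16 and 18.03 in WT of set 1, and 16.85 and 16.17 against 16.39 and 16.60 in set 2. Abcd3, which carries dicarboxylic acids into peroxisomes, read 15.45 and 15.54 against 15.38 and 15.26 in set 1, and 15.03 and 14.95 against 15.86 and 15.74 in set 2.

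The other target genes of PPAR alpha lay mostly above 0 in set 1 and mostly below 0 in set 2. Of 31 measured, 20 had a difference above 0 in set 1 and 4 in set 2, with medians of 0.06 and -0.24. Both KO arrays lay below both WT arrays of set 2 in 20 of the 31, where 19.1% of all genes did so, and in both sets in 1, Acaa2, where 2.45% did so. Marker lists of muscle and brown fat had values below 0 in set 2 as well: the mean difference was below 0 for 25 of 25 skeletal muscle markers (median -1.59; 17 of 25 and -0.07 in set 1) and for 12 of 16 brown adipocyte markers (median -0.09; 7 of 16 and 0.00 in set 1), against 14222 of 30624 genes. Their part in the values of the PPAR alpha targets was not tested. Those with the smallest unadjusted p were Vnn3 (0.23, SE 0.12), a vanin, Angptl4 (0.26, SE 0.14), an inhibitor of lipoprotein lipase, Ucp3 (-0.91, SE 0.50), a mitochondrial carrier, and Acot3 (-0.43, SE 0.24), a peroxisomal thioesterase. Cpt1a, the carnitine palmitoyltransferase of liver, read 7.78 and 6.74 in KO against 6.33 and 6.26 in WT of set 1, in the order of albumin, and 7.64 and 7.72 against 8.20 and 7.86 in set 2. Vnn1, a pantetheinase, had the highest difference of the list in set 2 (9.84 and 9.91 against 7.21 and 7.36, a difference of 2.59) and one of -0.88 in set 1. Cpt1a and Vnn1 were singled out after their values were seen. Pdk4 read at the upper end of the scale on every array and could not be compared. Cidea read 18.76 on every array of set 1, a difference of 0.0 there. Both genes are included in the 31 measured.

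**Figure D5:**
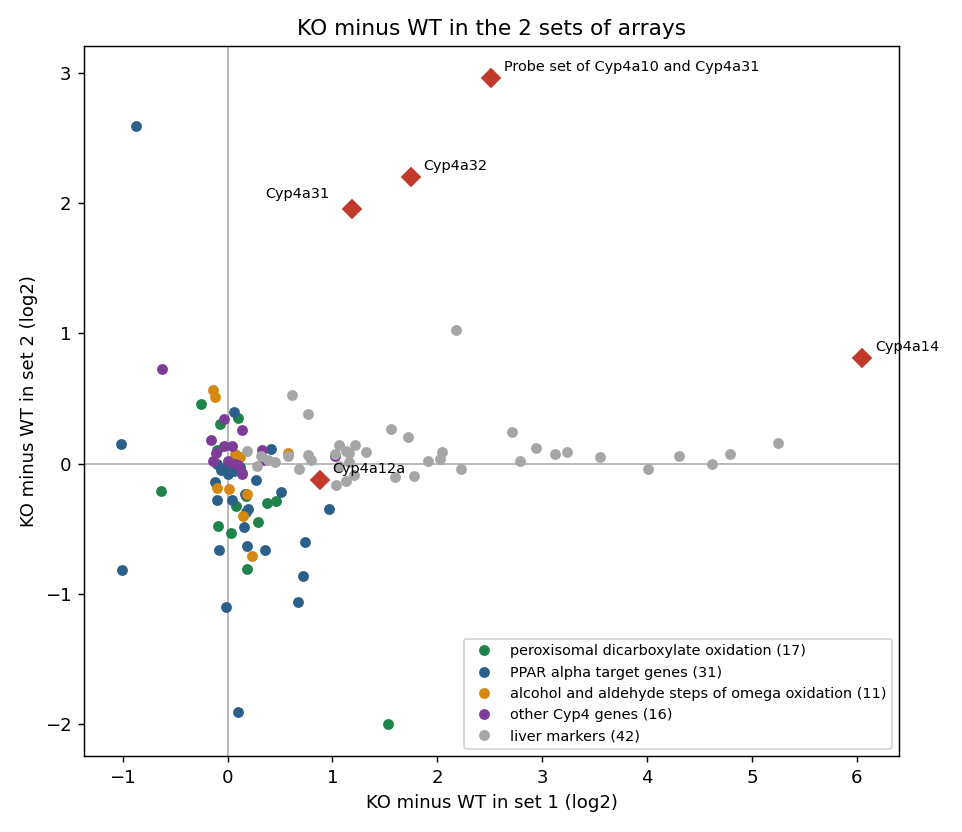
KO minus WT in set 1 (horizontal axis) and in set 2 (vertical axis), both on the log2 scale, for 5 Cyp4a probe sets (red diamonds) and for genes of 5 lists, with the number measured in brackets. Cyp4a31, Cyp4a32 and the probe set of Cyp4a10 and Cyp4a31 lie above 1 on both axes, the liver markers spread along the horizontal axis from 0.19 to 5.25, and the PPAR alpha targets lie mostly below 0 in set 2.

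Among 17 measured regulators of Cyp4a genes, 4 had a difference above 0 and 13 below. Ppara, the receptor itself, read 12.14 and 12.54 in KO against 12.66 and 12.77 in WT of set 1, and 13.76 and 11.94 against 14.26 and 13.92 in set 2. KO values were below WT values in both sets (2.45% of all genes). Within set 2 Ppara was lowest in KO 4, the array of that set in which Cyp4a31 and Cyp4a32 were highest. KO 4 was also lowest for the brown adipocyte markers Plin1 (13.63 against 14.97 to 16.43) and Elovl3 (15.63 against 17.39 to 17.56). It was not lowest for Pparg (15.97 against 15.67 to 16.02). Whether these values are related was not tested. The difference of Ppara over both sets was -0.81 (SE 0.38, limma adjusted p = 0.984). Rxrb, a partner of PPAR alpha on DNA, differed by -0.13 (SE 0.08), Stat5b, which carries the growth hormone signal to sex-biased liver genes, by -0.18 (SE 0.08) and Hnf4a, a hepatocyte transcription factor, by 0.20 (SE 0.11). Hnf4a read 4.17 to 4.78 in set 1, in the order of albumin, and 4.58 to 4.63 in set 2.

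Sex-biased liver genes were listed because Cyp4a12a is one of them. Of 13 measured, 11 had a difference above 0, with a median of 0.29 (0.25 in set 1 and 0.14 in set 2). Mup20, a male-predominant urinary protein of liver, read 15.52 and 11.32 in KO against 12.32 and 9.31 in WT of set 1, and 5.69 and 6.92 against 4.44 and 4.07 in set 2, a difference of 2.33 (SE 0.98, limma adjusted p = 0.984). In set 2, KO 4 was thus highest for Mup20, as for Cyp4a31 and Cyp4a32. Cyp2d9, a male-predominant steroid hydroxylase, read 8.70, 6.32, 5.98 and 5.17 on KO 1, KO 2, WT 1 and WT 2, in the order of albumin, and 4.35 to 4.64 in set 2. Slco1a1, an organic anion transporter, differed by 0.40 (SE 0.18) and Acot3, also a PPAR alpha target, by -0.43 (SE 0.24).

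The liver markers themselves had 42 of 42 differences above 0 in set 1 (median 1.27) and 31 of 42 in set 2 (median 0.06). Both KO arrays lay above both WT arrays of set 2 in 10 of the 42 and below them in 3, as in 23.9% and 19.1% of all genes. Hpd, a tyrosine-degrading enzyme, had the largest difference in set 2, 1.03. It read 6.49 and 6.57 in KO against 5.29 and 5.72 in WT. Its values in set 1 were 9.80 and 6.99 against 6.48 and 5.94. Apoc3 (0.53) and Kng1 (0.38) came next in set 2. Apoc3 read 6.19 and 7.10 in KO against 6.16 and 6.08 in WT. Kng1 read 5.77 and 6.42 in KO against 5.71 and 5.71 in WT, so both were highest in KO 4.

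For each probe set, the 3 named protein-coding genes with the most similar pattern were sought among 10228 genes with a mean above the median of all genes, by Pearson's r over the 8 arrays after the mean of each set was removed. These values describe likeness in arrays that share 2 normalizations and, in set 1, the gradient of liver transcripts. For Cyp4a14 they were Tat (0.98), Igfbp1 (0.98), a liver protein that binds insulin-like growth factors, and Bhmt (0.97), a methionine-forming enzyme of liver. Bhmt read 11.24 and 7.81 in KO against 5.05 and 3.87 in WT of set 1 and 4.17 to 4.43 in set 2. For Cyp4a12a they were F5 (0.998), a clotting factor, Cyp2c50 (0.99), a P450 epoxygenase, and Hc (0.99), the complement component C5. All 3 were high in KO 1 and without a KO-higher pattern in set 2.

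For Cyp4a31 and Cyp4a32 the likest gene was the same, Itih4 (r of 0.985 and 0.988), a secreted acute phase protein. Itih4 read 6.72 and 4.90 in KO against 5.14 and 4.56 in WT of set 1, and 5.25 and 7.57 against 4.93 and 4.94 in set 2, so it was also high in KO 1 and KO 4. Zfp623 (0.97 for each), a zinc finger gene, came next with values that spanned only 5.08 to 5.24 in set 1 and 6.49 to 6.75 in set 2. Ccl9 (0.97), a chemokine, was the third for Cyp4a31, and Cth (0.97), the cysteine-forming enzyme cystathionine gamma-lyase, was the third for Cyp4a32. Cth read 8.29 and 6.36 against 6.23 and 5.90 in set 1, and 6.21 and 7.603 against 5.85 and 5.72 in set 2. The probe set of Cyp4a10 and Cyp4a31 was most like Itih4 (0.98), Cth (0.98) and Apoc3 (0.97). Apoc3, an apolipoprotein and one of the liver markers, read 7.10 in KO 4 and 6.08 to 6.19 in the rest of set 2.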

How the data were processed

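Total RNA of 8 brown fat samples was measured on Affymetrix arrays, 1 per mouse. The deposited values are log2 expression values that the authors made by RMA (core exons) with the Affymetrix Expression Console, per the labels and the submitters' processing notes. The design text names Clariom S arrays, but the values hold 72688 probe sets, more than that array would, so the array type is not settled. The genome build is not stated in the labels, so no coordinates are printed, and no scanner files were used. RMA brings arrays to a common distribution, so amounts are relative within a set.

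After 6732 controls were set aside, 65956 probe sets remained. Of these, 30468 had 1 gene symbol in the platform annotation, 609 had several symbols that RefSeq's table (GRCm38.p6 names) gives as synonyms of 1 gene, 1673 had several genes and were left unnamed, and 33206 had none. Where several probe sets named the same gene, as for 357 genes, the one of highest mean was kept, which gave 30624 genes, 30128 of them matched to a gene identifier. Each Cyp4a gene measured had 1 probe set.

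Limma 3.58.1 in R 4.3.3 (lmFit, eBayes) fitted KO minus WT with a term for the set, and also separately per set from 4 group-by-set means, over all genes without a filter, and called genes at an adjusted p (Benjamini-Hochberg) under 0.05. The fit was also run on simulated data with known changes and noise independent between genes. Those data lack transcript gradients shared over genes, so that run does not show how the fit performs on these arrays. No p is given for the Cyp4a genes. The genes, the gene lists, the set block and the rule for named genes (the 5 genes, Alb and Hilpda, up to 4 per list with the smallest unadjusted p, the 3 likest genes per probe set, and chromosome neighbours) were chosen with earlier results of these data known. Genes named from the lists outside that rule were taken to illustrate a list's range or role after their values were seen. The labels say that no technical replicates were made, and p-values measure the spread between these arrays.

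Replicate numbers are shared by the genotypes. After the group mean was removed, KO and WT arrays of the same number had correlations of 0.701, 0.473, 0.478 and 0.61, and at 0.107, 0.107, -0.0888 and -0.0888 with the set difference also removed, so what they share is mostly the set. Blocking on the replicate number called 0 genes. Alternatives were a filter on low values, other normalizations, eBayes with trend, the mean of a gene's probe sets, no block and each array left out.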

Additional observations from a re-analysis of the deposited data

Results flagged for a closer look

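In 90 groups of 4 arrays, of the Cyp4a probe sets and the genes named by rule, 1 array lay far from the other 3 in 6 groups, where chance gives about 1 in 20. KO 1 was far above the other KO arrays for Cyp4a12b (5.66 against 3.57 to 3.92), F5 (6.00 against 4.51 to 4.65) and Hc (6.31 against 4.07 to 4.45), and it was the array with the highest albumin. WT 1 was far above the other WT arrays for Cyp2c50 (5.03 against 4.11 to 4.17). WT 2 was far below them for Apoc3 (5.44 against 6.06 to 6.16). KO 3 was far above the other KO arrays for Ucp3 (13.05 against 10.45 to 10.70). These groups span both sets of arrays, and the part of the set difference in them was not tested.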

How the results depend on the processing

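The Cyp4a differences were recomputed 169 times in all. Of these, 65 kept all arrays (the filter, quantile normalization within each set, median centring, eBayes with trend, the mean of a gene's probe sets, no block or the replicate block). Only quantile normalization and median centring could move a mean difference, and under them each kept its sign and moved by less than 1 SD between replicates. The other settings left it unchanged by design and say nothing on its stability, since each Cyp4a gene measured had 1 probe set and the genotypes were balanced over the sets. With 1 array left out, 8 moved by more, those of Cyp4a12a and Cyp4a14 in set 1 and of Cyp4a31 and Cyp4a32 in set 2. The ranges were 0.01 to 1.75 for Cyp4a12a and 3.72 to 8.38 for Cyp4a14 in set 1, and 0.91 to 2.998 for Cyp4a31 and 0.79 to 3.61 for Cyp4a32 in set 2. That SD includes the gaps between the KO arrays themselves, so large falls can count as less than 1 SD. In set 1, Cyp4a31 fell from 1.18 to 0.34 and Cyp4a32 from 1.75 to 0.59 without KO replicate 1. The probe set of Cyp4a10 and Cyp4a31 fell there from 2.51 to 0.81. Leaving out an array of 1 set left the difference of the other set unchanged by design. The sign changed in 1 case, Cyp4a12a balanced over the sets (0.38, and -0.07 without KO replicate 1). A lone array left in a group is assumed to vary like the others. Genes called by limma numbered 0 with the set as a block, without a block (38 with an unadjusted p under 0.05) and with the replicate block (1227 unadjusted), and 0 to 1 with an array left out (1 without KO replicate 3). In set 1 the range was 0 to 14, with 14 without KO replicate 2 and 1 without KO replicate 1. In set 2 the count of 1 became 37 with genes of a mean under 5 left out, 0 after quantile normalization, and 0 to 10 with an array left out: 10 without KO replicate 3, 9 without WT replicate 4, 2 without KO replicate 4 and 0 without WT replicate 1, 2 or 3. The filter tests fewer genes (12625); the cause of the other changes was not tested. Signal near background limits Cyp4a12a, and Cyp4a14 in WT.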
